A study of Mus musculus with 6 samples.

Results

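The genes of the nuclear pore and of the nuclear transport receptors were described in oocytes of aged females (AF), across the non-polysomal (NP) and polysomal (P) RNA. Members were taken by gene symbol and not by any measured value: every mouse gene named Nup, Kpna, Kpnb, Ipo or Xpo followed by a number. The rule took 40 of the 25899 genes of the expression table, namely 21 nucleoporins (Nup), 7 importin α and β genes (Kpna and Kpnb), 7 further importins (Ipo) and 5 exportins (Xpo). The samples were 3 NP and 3 P libraries, numbered 1 to 3 by the labels, from AF oocytes taken just after nuclear envelope breakdown (NEBD). By the study's methods each lysate of 200 oocytes gave both an NP and a P pool. No source used here ties a replicate number to a lysate, so the main test was unpaired. By the labels the oocytes came from CD1 mice aged 58 weeks, while the methods of the study name the strain ICR and give another age. All 6 libraries shared the same handling: priming with 5 IU of pregnant mare serum gonadotropin 46 h before collection, meiotic arrest in 100 µM IBMX, release for 180 min, and 0.1 mg/ml cycloheximide in the last 10 min to hold ribosomes on their mRNAs. No genotype is named in the labels, the number of females behind a library was not given in the sources used here, and libraries of young females were not analysed here. Since no label says that the 3 libraries of a fraction came from separate animals, p-values measured only the spread between these libraries.

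The nuclear pore complex is the channel through the nuclear envelope. It is built of nucleoporins arranged as outer rings (the Y complex), an inner ring, a central channel lined by FG-repeat proteins, filaments on the cytoplasmic face and a basket on the nuclear face. Importin α reads the classical nuclear localisation signal and binds importin β, which carries the cargo through the channel, other importins carry cargo on their own, and exportins carry protein and RNA outward. The small GTPase Ran gives the direction, because its GTP-bound form releases cargo from importins and loads cargo on exportins. When the envelope breaks down at the resumption of meiosis the pores come apart. The same proteins then act outside the nucleus: importins and Ran control spindle assembly factors around the chromosomes, and the Y complex is known at kinetochores of dividing cells. The mammalian oocyte stops transcription when fully grown, so pore and transport proteins made after that come from stored mRNAs, and loading onto polysomes is a step in their use.

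Values were FPKM (fragments per kilobase of exon, scaled to the mapped fragments of the library), a level corrected for gene length. The read depth recovered from the table ran from 163818 reads in P 1 to 18094960 reads in NP 2, a difference of 110-fold, and the other P libraries held 1141249 and 1549170 reads. A gene with 2 kb of exon and no read could therefore hold up to 9.16 FPKM in P 1 but 0.0829 FPKM in NP 2, taking 3 reads as the limit that a count of 0 allows (counting error only). All 10 oocyte marker genes were above 0 in every library, and their summed level was 11278 to 14673 FPKM in NP and 4906 to 14738 FPKM in P. Of 9 markers of granulosa and cumulus cells, 5 (*Amh*, *Foxl2*, *Inhba*, *Fshr* and *Has2*) were at 0 in every library, and the list summed to 11.2 to 131 FPKM in NP and 1.18 to 16.5 FPKM in P, with the highest sum in NP 3. Most of it was *Cyp19a1*, at 7.15, 22.5 and 104 FPKM in NP 1 to 3 and 15.4 FPKM in P 1, and *Nr5a2*, at up to 26.9 FPKM. All 5 blood markers in the table were at 0 throughout. NP 3 stood apart from the other NP libraries for the transport genes. It held the lowest NP value of 29 of the 36 members tested, where it did so for 60.8% of all genes tested, and it was over 5-fold below both other NP libraries for 12 of the 36 (28.0% of all genes). The rank order of the members was close between NP 1 and NP 2 (Spearman's rho 0.93 over 39 members, described without a test) and looser between NP 3 and NP 1 (0.65) or NP 2 (0.70). Among the P libraries, P 3 held the lowest value of 16 of the 36 members (30.8% of all genes). The rho was 0.81 between P 1 and P 2, 0.65 between P 1 and P 3 and 0.56 between P 2 and P 3. The part of depth, of NP 3, of P 3 and of the granulosa markers in the results below was not tested.

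**Figure D1:**
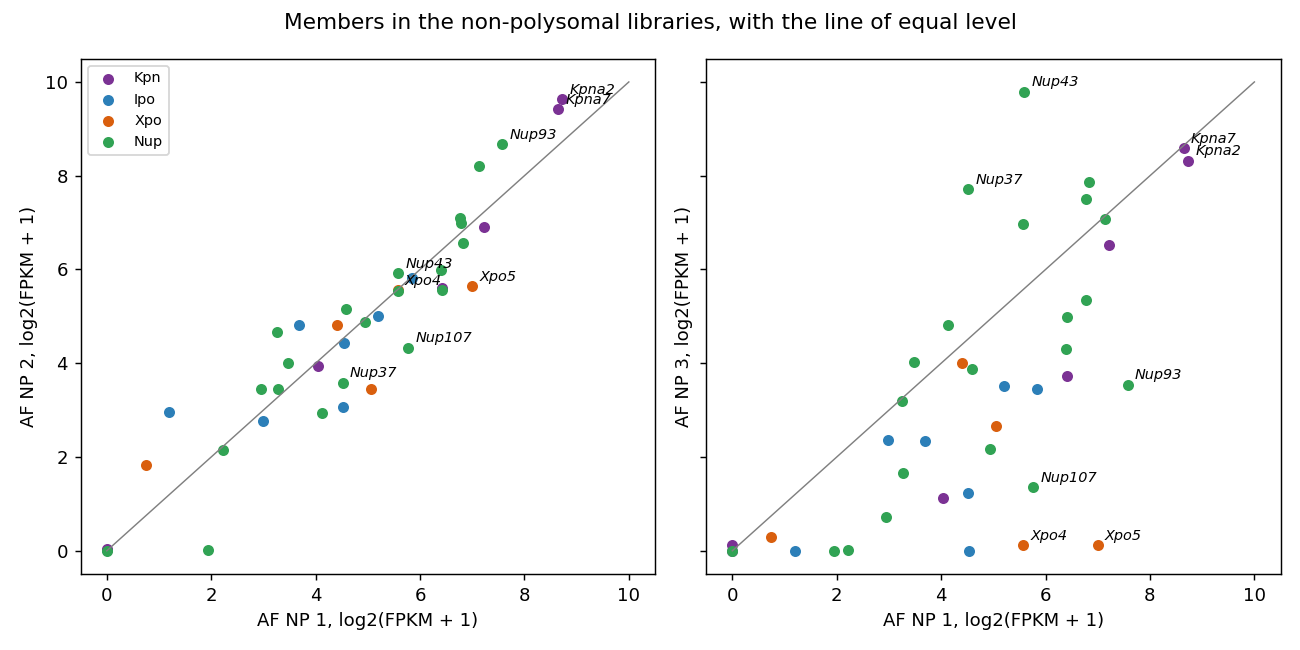
Level of each member, as log2(FPKM + 1), in NP 2 (left panel) and NP 3 (right panel) against NP 1, coloured by prefix, with the line of equal level. Points lie near the line for NP 2, whereas for NP 3 most lie under it, *Xpo4* and *Xpo5* near 0, and *Nup43* and *Nup37* lie far above it.

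The comparison of P with NP asks how the share of each mRNA in the polysomal pool stood to its share in the non-polysomal pool of AF oocytes after NEBD. FPKM is scaled within a library, so the ratio is relative and does not give the part of an mRNA on polysomes. The FPKM values of a library summed to 597261 to 633110 in NP and 246182 to 393876 in P. No transport gene differed between the fractions past the threshold. Of the 40 members, 36 had a mean above 1 FPKM in either fraction and were tested, and 0 passed an adjusted p of 0.1 (limma on log2(FPKM + 1), Benjamini-Hochberg over 10578 genes), where 1.82% of all genes tested did (1.8% lower and 0.0189% higher in P). With replicate number as a block 1 member passed (*Xpo7*), in a fit that called 668 genes in place of 192. At an unadjusted p under 0.05 the count was 5 of 36 (*Nup43*, *Xpo7*, *Nup188*, *Kpna7* and *Ipo4*, each with the lower mean in P) against 15.8% of all genes (15.5% lower and 0.293% higher). The P mean was the lower on the log scale for 28 of 36 members, close to the 80.1% of all genes. Every P library lay below every NP library for 9 of 36 members (*Ipo4*, *Ipo13*, *Kpna6*, *Kpna7*, *Nup88*, *Nup98*, *Nup188*, *Nup214* and *Xpo7*) against 23.2% of all genes, although for *Ipo13* the limit of a 0 in P 1 was above its lowest NP value. Every P library lay above every NP library for *Nup160* alone, 1 of 36 against 0.633%. The members' ratios of P to NP had a median of -0.88 on the log2 scale and those of all genes tested -1.03, and 17 of the 36 members lay below the all-gene median, as 50% of genes do by construction. The difference between these medians, 0.15, was within the change from leaving out single libraries (-0.091 to 0.43), so the members did not stand apart from other genes in a stable direction. Directions here are those of FPKM as deposited. Scaling the libraries to each other moved the all-gene median to -0.38, -0.14 or -0.43 (by median-of-ratios, by quantiles with 38 members tested, and by a common FPKM sum). It left 19, 17 or 19 members with the lower mean in P, where 60.0%, 53.6% or 61.6% of all genes had it. The standard error of a member's log2 ratio was 0.64 to 1.42, and the 95% interval held 0 for 31 of the 36 members and held both a 2-fold lower and a 2-fold higher level in P for 17.

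**Figure D2:**
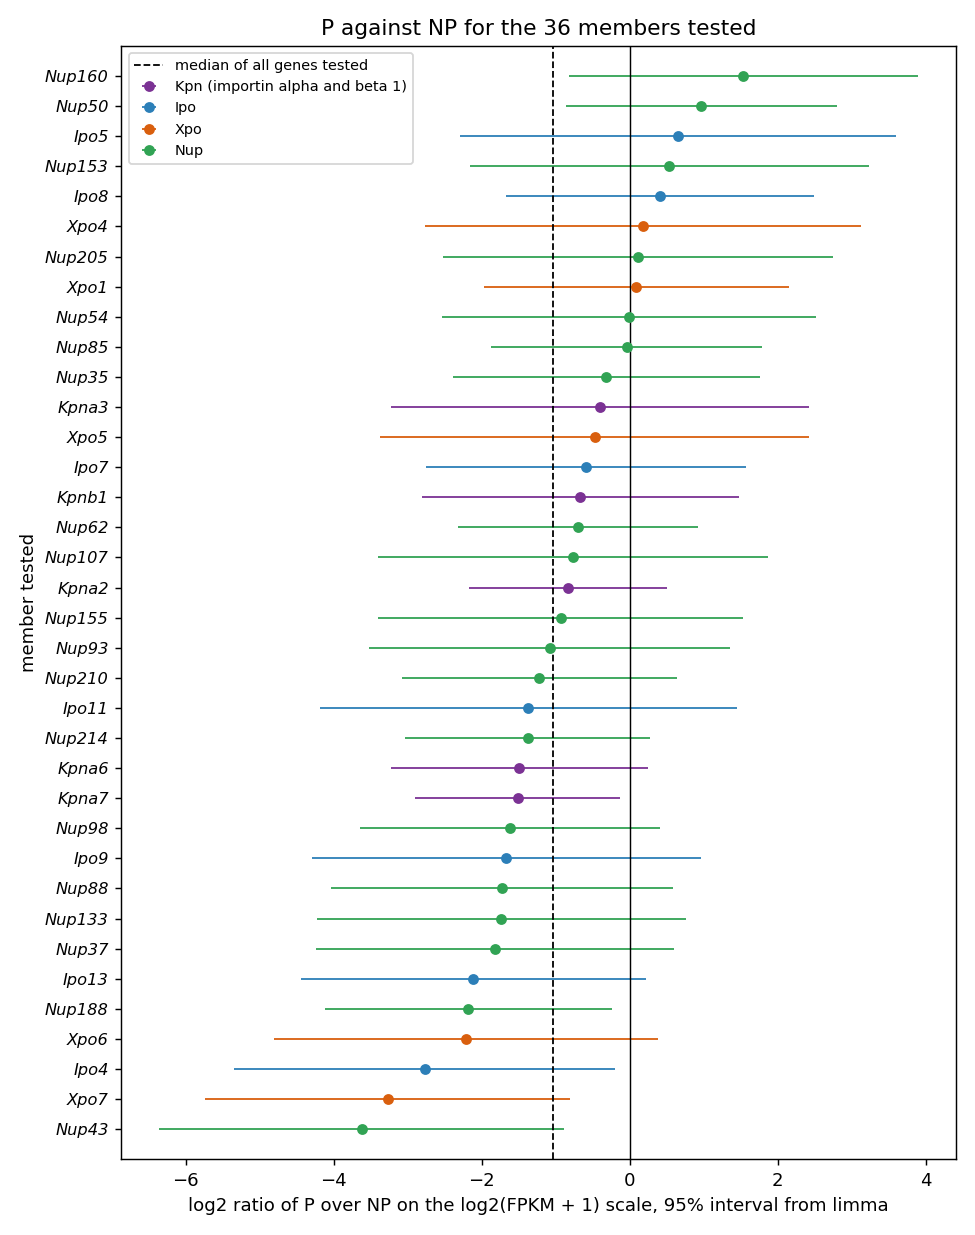
Log2 ratio of P over NP on the log2(FPKM + 1) scale for the 36 members tested, in order of the ratio and coloured by prefix, with 95% intervals from limma. The solid line marks 0 and the dashed line the median of all genes tested, -1.03. Ratios run from -3.62 for *Nup43* to 1.54 for *Nup160*, and most intervals span both lines.

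On the FPKM scale all 5 importin α and β genes tested had the lower mean in P (median log2 ratio -0.84), a count that became 2 of 5 under median-of-ratios or common-sum scaling. By mean level the most abundant single members were the importin α genes *Kpna2* and *Kpna7*. *Kpna2* (importin α1, chr11:106988629-106999541, minus strand) was at 423, 792 and 319 FPKM in NP 1 to 3 and 317, 180.2 and 327 FPKM in P 1 to 3. *Kpna7* (importin α8, the form of oocytes and early embryos, chr5:144983519-145084030, minus strand) was at 399, 681 and 382 FPKM in NP 1 to 3 and 263, 132 and 127 FPKM in P 1 to 3. Per length they ranked first and second of the members in both fractions, with mean levels of 511 and 487 FPKM in NP and 275 and 174 FPKM in P. The levels of *Kpna2* overlapped between the fractions (log2 ratio -0.84, SE 0.64, limma adjusted p = 0.499), and the sign of its ratio turned once libraries were scaled to each other (0.16 with median-of-ratios scaling). For *Kpna7* all P libraries lay below all NP libraries, yet the difference did not pass the threshold over all genes (log2 ratio -1.51, SE 0.67, limma adjusted p = 0.282). Its log2 ratio shrank to -0.52, -0.46 and -0.58 when libraries were scaled by median-of-ratios, by quantiles or to a common sum.

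*Kpna6* (importin α7, chr4:129643980-129672767, minus strand) was at 148, 119.8 and 90.3 FPKM in NP 1 to 3 and 47.2, 36.6 and 39.8 FPKM in P 1 to 3. It was even across libraries, with P below NP throughout (log2 ratio -1.49, SE 0.84, limma adjusted p = 0.384), and its ratio was -0.51, -0.51 and -0.57 with the same scalings. *Kpna3* (importin α4) was at 15.5, 14.3 and 1.19 FPKM in NP 1 to 3 and 0, 12.6 and 16.7 FPKM in P 1 to 3, so it was listed at 0 in the shallowest library (up to 4.26 FPKM) and near the NP 1 level in the other P libraries. *Kpnb1*, the importin β that carries importin α with its cargo, was at 84.5, 47.98 and 12.2 FPKM in NP 1 to 3 and 32.4, 29.2 and 12.7 FPKM in P 1 to 3 (log2 ratio -0.67, SE 1.03, limma adjusted p = 0.742). Its levels were therefore well under those of *Kpna2* and *Kpna7* in every library.

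The remaining importin α genes, *Kpna1* and *Kpna4*, were near or at 0 and were not tested. *Kpna4* was at 0, 0.0247 and 0.0922 FPKM in NP 1 to 3 and 0, 0.294 and 0.289 FPKM in P 1 to 3. These were 4 and 10 reads in NP 2 and NP 3 and 3 and 4 reads in P 2 and P 3. *Kpna1* was at 0, 0.0130 and 0 FPKM in NP 1 to 3 and 0, 0.206 and 1.29 FPKM in P 1 to 3, which was 17 reads at the most. The gene model of *Kpna1* overlaps *Gm15564* on the other strand, and since the strand setting of the counting was not given in the sources used here, reads of these genes cannot be told apart. Other members whose gene models overlap a neighbour, and to which the same limit applies, include *Ipo4*, *Kpna7*, *Kpnb1*, *Nup62*, *Nup88*, *Nup133*, *Nup188*, *Xpo4* and *Xpo7*.

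The summed *Kpna* level ran from 362 FPKM in P 2 to 1607 FPKM in NP 2, while its makeup was steadier. *Kpna2* and *Kpna7* together held 83.4 to 92.5% of the summed *Kpna* FPKM in all 6 libraries. The *Kpna2* share was 42.9, 49.3 and 40.2% in NP 1 to 3 and 50.5, 49.8 and 63.8% in P 1 to 3, so the lowest P share lay above the highest NP share by a narrow margin. The *Kpna7* share was 40.5, 42.4 and 48.2% in NP and 41.9, 36.5 and 24.9% in P, and these overlapped. The ratio of *Kpna7* to *Kpna2* was 0.944, 0.86 and 1.198 in NP and 0.83, 0.732 and 0.3899 in P. All P ratios lay below all NP ratios, most of all in P 3, but by a narrow margin between P 1 (0.83) and NP 2 (0.86). This ratio was chosen after the values had been seen and is given without a test, and a comparison of 3 with 3 libraries cannot go below an exact two-sided p of 0.1. In P 1 the values of *Kpna2* and *Kpna7* rested on 149 and 135 reads, and the narrow margin was not tested against counting error.

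**Figure D3:**
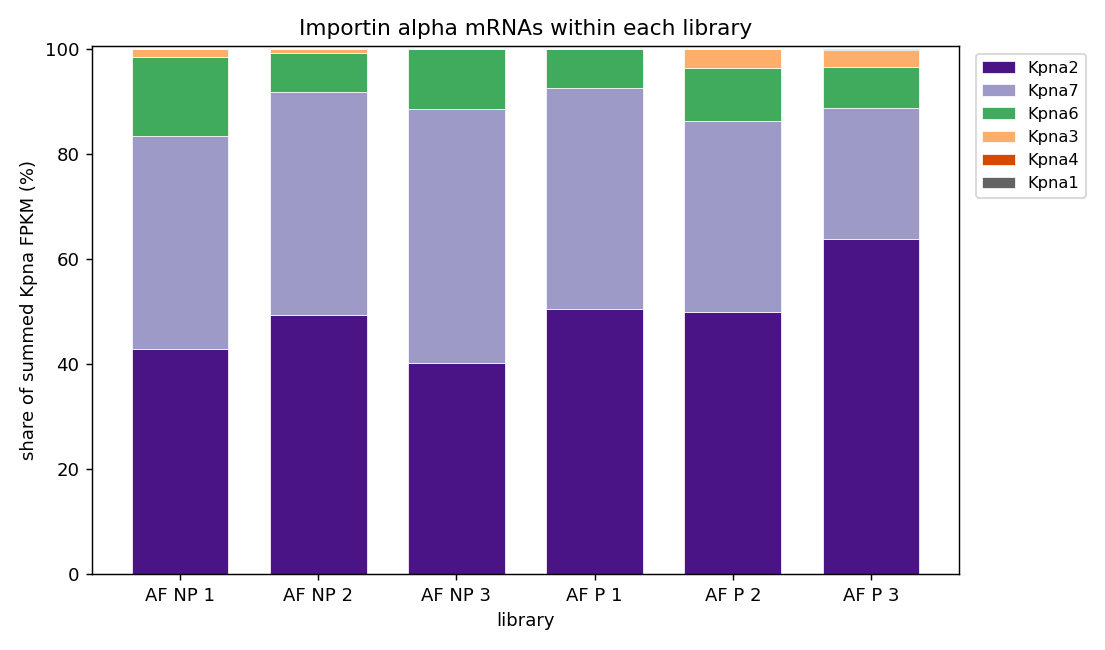
Share of each importin α gene in the summed *Kpna* FPKM (vertical axis, percent) in each of the 6 libraries, as stacked bars. *Kpna2* and *Kpna7* make up 83.4 to 92.5% of every bar, and the *Kpna2* part is highest in P 3 (63.8%).

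**Figure D4:**
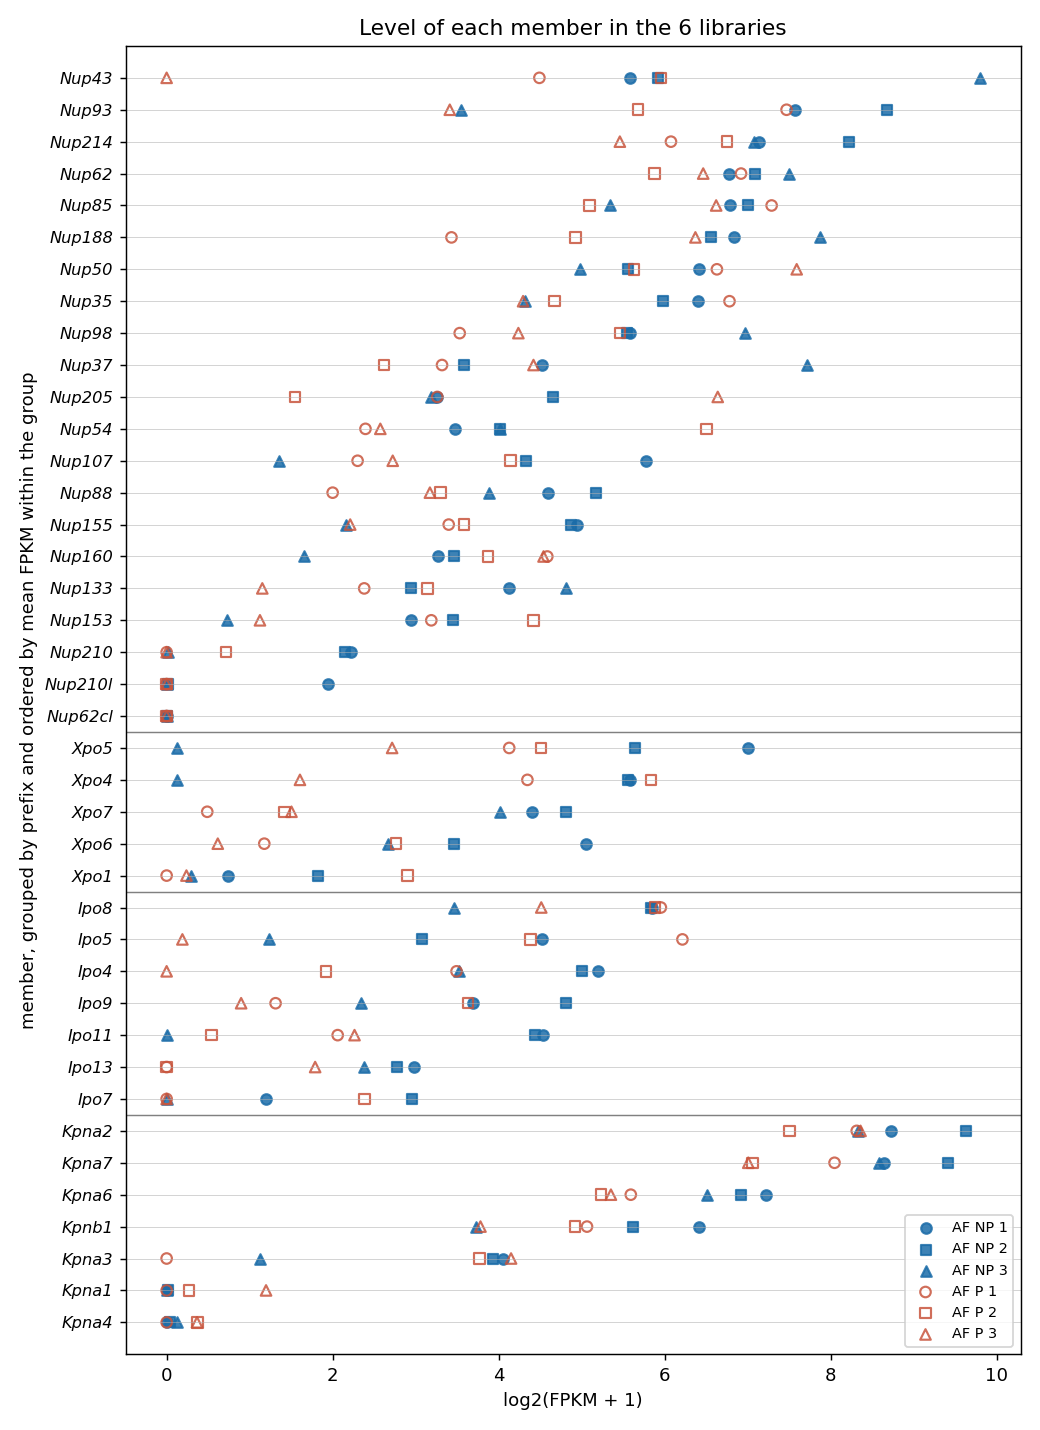
Level of all 40 members as log2(FPKM + 1), with filled blue points for the 3 NP libraries and open red points for the 3 P libraries, grouped by prefix and ordered by mean FPKM. By mean level *Kpna2* and *Kpna7* are the highest in both fractions, while members such as *Nup43*, *Nup93* and *Xpo5* spread widely within a fraction.

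Among nucleoporins, 19 of 21 were tested, of which 15 had a lower and 4 a higher mean in P on the log scale (median log2 ratio -0.93), against 10 lower and 9 higher with median-of-ratios scaling. All parts of the pore were represented above 0 in both fractions, although the membrane part, *Nup210* alone, was above 0 in only 1 P library. The levels of the parts did not follow one pattern. The Y complex builds the outer rings, and 6 of its 7 genes taken by the rule had the lower mean in P (median log2 ratio -1.62), a count of 4 with each of the 3 scalings. *Nup160*, a scaffold subunit of the Y complex (chr2:90677215-90736328, plus strand), went the other way, at 8.67, 9.97 and 2.15 FPKM in NP 1 to 3 and 22.99, 13.6 and 22.2 FPKM in P 1 to 3. The P values were higher in every library, but NP 3 was low and the difference did not pass (log2 ratio 1.54, SE 1.14, limma adjusted p = 0.486), with a ratio of 0.97 without NP 3 and 2.46, 2.46 and 2.38 with the 3 scalings. *Nup85*, another scaffold subunit, was at 109, 127 and 39.5 FPKM in NP 1 to 3 and 155, 33.1 and 97.2 FPKM in P 1 to 3, with fractions that overlapped (log2 ratio -0.041, SE 0.88, limma adjusted p = 0.984).

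*Nup43* (chr10:7667503-7678881, plus strand), a small β-propeller subunit of the Y complex, had the lowest log2 ratio of the members tested. It was at 47.02, 59.5 and 887 FPKM in NP 1 to 3 and 21.5, 60.9 and 0 FPKM in P 1 to 3, the NP 3 value resting on 27535 reads and the 0 in P 3 allowing up to 0.756 FPKM. The fractions overlapped, since P 2 lay above NP 1 and NP 2. Its log2 ratio of -3.62 (SE 1.32, limma adjusted p = 0.192) became -2.27 without NP 3 and -1.88 without P 3. *Nup37*, another propeller subunit, was also highest in NP 3, at 21.9, 10.99 and 208 FPKM in NP 1 to 3 and 8.96, 5.15 and 20.4 FPKM in P 1 to 3. *Nup43* overlaps *Pcmt1*, so that without the strand setting their reads cannot be told apart.

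*Nup107* was at 53.5, 19.1 and 1.56 FPKM in NP 1 to 3 and 3.92, 16.6 and 5.602 FPKM in P 1 to 3, and *Nup133*, the membrane-facing tip of the complex, at 16.4, 6.698 and 26.995 FPKM in NP 1 to 3 and 4.204, 7.84 and 1.22 FPKM in P 1 to 3. Both overlapped between fractions. *Nup98*, made as a precursor with *Nup96* and counted with the Y complex here, was at 46.7, 45.5 and 124 FPKM in NP 1 to 3 and 10.5, 43.03 and 17.8 FPKM in P 1 to 3, with all P values below all NP values (log2 ratio -1.62, SE 0.98, limma adjusted p = 0.411).

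The inner ring anchors the channel to the membrane, and 4 of its 5 genes had the lower mean in P (median log2 ratio -0.93), which became 3 with median-of-ratios scaling and 2 with quantile scaling. *Nup93*, the scaffold of the ring (chr8:94214597-94315066, plus strand), was at 189, 409 and 10.7 FPKM in NP 1 to 3 and 176, 50.2 and 9.63 FPKM in P 1 to 3. NP 1, NP 2 and P 1 were high and the third library of each fraction was low, so the fractions overlapped (log2 ratio -1.08, SE 1.18, limma adjusted p = 0.616), and single libraries decided the ratio. It was -2.61 without NP 3 and -2.06 without P 1, but -0.59 without NP 1, -0.042 without NP 2 and -0.027 without P 3, and -0.10, -0.10 and -0.17 with the 3 scalings. *Nup188* was at 113, 93.1 and 233 FPKM in NP 1 to 3 and 9.78, 29.3 and 81.6 FPKM in P 1 to 3, with every P library below every NP library (log2 ratio -2.18, SE 0.93, limma adjusted p = 0.271). The related ring protein *Nup205* was at 8.58, 24.2 and 8.09 FPKM in NP 1 to 3 and 8.58, 1.91 and 98.5 FPKM in P 1 to 3, more even in NP and uneven in P, where P 3 held 90.4% of the summed P level. *Nup155* was at 29.8, 28.3 and 3.48 FPKM in NP 1 to 3 and 9.53, 10.9 and 3.63 FPKM in P 1 to 3, and *Nup35*, which contacts the membrane, at 83.3, 62.1 and 18.9 FPKM in NP 1 to 3 and 109, 24.5 and 18.6 FPKM in P 1 to 3. Neither separated the fractions, and *Nup35* overlaps *Dusp19* on the same strand.

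*Nup62*, the central FG nucleoporin of the channel (chr7:44816088-44830809, plus strand), was among the steadiest members, at 109, 135 and 179 FPKM in NP 1 to 3 and 119.9, 57.8 and 87.2 FPKM in P 1 to 3 (log2 ratio -0.70, SE 0.78, limma adjusted p = 0.626). *Nup54*, which binds it, was at 10.1, 15.1 and 15.2 FPKM in NP 1 to 3 and 4.26, 89.5 and 4.95 FPKM in P 1 to 3, and P 2 alone was high. On the cytoplasmic face, *Nup214* (chr2:31974436-32053975, plus strand) was at 139, 296 and 134 FPKM in NP 1 to 3 and 66.4, 106 and 42.97 FPKM in P 1 to 3, and its partner *Nup88* at 23.1, 34.9 and 13.8 FPKM in NP 1 to 3 and 2.998, 8.82 and 8.005 FPKM in P 1 to 3. For both, all P libraries lay below all NP libraries without passing the threshold (for *Nup214*, log2 ratio -1.38, SE 0.80, limma adjusted p = 0.396; for *Nup88*, log2 ratio -1.73, SE 1.12, limma adjusted p = 0.440). With the 3 scalings the ratio of *Nup214* was -0.39, -0.31 and -0.45. *Nup214* overlaps the genes *Gm13609*, *Gm16534* and *Fam78a*.

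Basket nucleoporins were the subgroup whose genes taken by the rule, 2 in all, both had the higher mean in P, on the FPKM scale and with each of the 3 scalings, although neither passed the test. With the 3 scalings, though not on the FPKM scale, the central channel genes (*Nup54* and *Nup62*) also both had the higher mean in P. *Nup50*, which meets importin α at the basket (chr15:84923428-84942955, plus strand), was at 84.2, 46.1 and 30.5 FPKM in NP 1 to 3 and 97.9, 48.4 and 191 FPKM in P 1 to 3. P 3 was the highest library and the other P libraries lay within or just above the NP range (log2 ratio 0.96, SE 0.88, limma adjusted p = 0.555). Its ratio was 0.48 without P 3 and 0.63 without NP 3. *Nup153*, which ties the basket to the ring, was at 6.71, 9.903 and 0.657 FPKM in NP 1 to 3 and 8.11, 20.4 and 1.18 FPKM in P 1 to 3 (log2 ratio 0.54, SE 1.301, limma adjusted p = 0.846). As a share of the summed nucleoporin FPKM of each library the basket made up 8.22, 3.902 and 1.61% in NP 1 to 3 and 12.6, 10.9 and 27.04% in P 1 to 3. The shares did not overlap, and leaving *Nup43* out of the sum left them apart (8.59, 4.07 and 2.97% against 12.96, 12.1 and 27.04%). The central channel share was 10.7, 10.5 and 10.1% in NP and 14.8, 23.4 and 12.9% in P, but without *Nup43* the NP 3 share became 18.5% and the fractions overlapped. The Y complex reached 66.6% of the nucleoporin level in NP 3, where *Nup43* was 68.8% of the Y complex. *Nup50* alone was 70.4 to 99.4% of the basket level, and its own share of the nucleoporin sum only just separated the fractions (7.61% in NP 1 against 7.70% in P 2). These shares were examined after the values had been seen and carry no test. *Nup210*, a membrane nucleoporin, was at 3.66, 3.44 and 0.0101 FPKM in NP 1 to 3 and 0, 0.644 and 0 FPKM in P 1 to 3. It passed the filter through NP alone. Its paralogue *Nup210l* was above 0 only in NP 1 (2.84 FPKM) and NP 2 (0.00973 FPKM), and *Nup62cl* was listed at 0 in all 6 libraries.

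**Figure D5:**
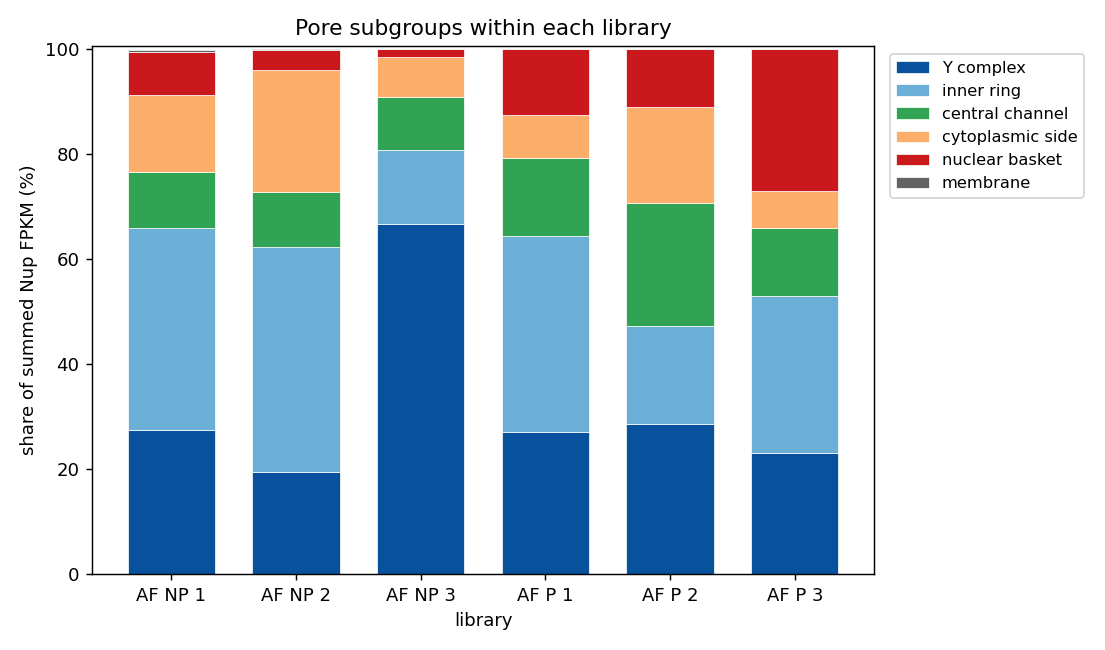
Share of each part of the pore in the summed nucleoporin FPKM (vertical axis, percent) in each of the 6 libraries, as stacked bars. The nuclear basket holds 1.61 to 8.22% of the NP bars and 10.9 to 27.0% of the P bars, and the Y complex fills 66.6% of NP 3.

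The importins that carry cargo without importin α were all tested, and 5 of the 7 had the lower mean in P (median log2 ratio -1.37), and 4 did with quantile scaling (median -0.12). *Ipo4* (chr14:55625400-55637895, minus strand), a carrier of histones and ribosomal proteins, was at 35.7, 31.1 and 10.5 FPKM in NP 1 to 3 and 10.2, 2.78 and 0 FPKM in P 1 to 3. All P values lay below all NP values (log2 ratio -2.77, SE 1.24, limma adjusted p = 0.288). The highest P value, from the shallowest library P 1, was just under the lowest NP value, so a separation was not clearly shown. The 0 of *Ipo4* in P 3 allowed up to 0.415 FPKM. *Ipo8* (chr6:148770683-148831467, minus strand), known as a carrier of SMAD and Argonaute proteins, was the most abundant of the group by mean level, at 56.4, 55.8 and 9.98 FPKM in NP 1 to 3 and 60.9, 58.1 and 21.8 FPKM in P 1 to 3. NP 1, NP 2, P 1 and P 2 were nearly equal (log2 ratio 0.41, SE 1.003, limma adjusted p = 0.848), and without NP 3 the log2 ratio changed sign to -0.39.

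*Ipo5* (chr14:120911194-120948042, plus strand), a carrier of ribosomal proteins and histones, was at 21.996, 7.402 and 1.35 FPKM in NP 1 to 3 and 73.1, 19.8 and 0.141 FPKM in P 1 to 3. Each fraction spread over more than 10-fold, and the ratio (log2 ratio 0.65, SE 1.42, limma adjusted p = 0.825) turned to -0.20 without NP 3 and to -0.66 without P 1. *Ipo13* was at 6.91, 5.85 and 4.17 FPKM in NP 1 to 3 and 0, 0 and 2.45 FPKM in P 1 to 3, but its 0 in P 1 allowed up to 4.35 FPKM, above the NP 3 value, so that a separation of the fractions was not shown, and it passed the filter through NP alone. *Ipo9*, a carrier of core histones, was at 11.9, 27.1 and 4.07 FPKM in NP 1 to 3 and 1.48, 11.4 and 0.862 FPKM in P 1 to 3, *Ipo11* at 22.2, 20.6 and 0 FPKM in NP 1 to 3 and 3.17, 0.455 and 3.799 FPKM in P 1 to 3, and *Ipo7* at 1.296, 6.75 and 0 FPKM in NP 1 to 3 and 0, 4.22 and 0 FPKM in P 1 to 3. These overlapped between fractions, and *Ipo7* and *Ipo13* were each above 0 in 1 P library only.

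All 5 exportins were tested, and 3 had the lower mean in P (median log2 ratio -0.47), whereas with the 3 scalings 2 did and the median turned to 0.52, 0.48 and 0.32. They included the member with the smallest adjusted p, *Xpo7* (chr14:70654246-70766628, minus strand), a broad-specificity exportin. It was at 20.1, 26.98 and 15.2 FPKM in NP 1 to 3 and 0.404, 1.68 and 1.84 FPKM in P 1 to 3. Even the lowest NP value was above 5 times the highest P value, and the ratio (log2 ratio -3.27, SE 1.19, limma adjusted p = 0.192) ran from -3.47 to -2.94 as single libraries were left out, with adjusted p of 0.168 to 0.533. It was smaller, at -2.47, -1.77 and -2.58, with the 3 scalings (limma adjusted p of 0.652 to 0.70), and -2.01 with a pseudocount of 5. Only with replicate number as a block did it pass the threshold (limma adjusted p = 0.096). *Xpo6*, the exportin of actin, was at 5.33 to 32.3 FPKM in NP and 1.26, 5.78 and 0.533 FPKM in P 1 to 3, with 1 P value above the lowest NP value (log2 ratio -2.21, SE 1.25, limma adjusted p = 0.387).

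*Xpo5* (chr17:46202855-46242299, plus strand), which exports microRNA precursors, was at 127, 48.9 and 0.0889 FPKM in NP 1 to 3 and 16.5, 21.7 and 5.57 FPKM in P 1 to 3, and NP 3 alone was near 0. Its ratio (log2 ratio -0.47, SE 1.401, limma adjusted p = 0.877) had no stable sign: it was 0.90 without NP 1 and -2.54 without NP 3. *Xpo4* (chr14:57581002-57665430, minus strand) was likewise near 0 in NP 3, at 46.7, 45.996 and 0.0908 FPKM in NP 1 to 3 and 19.3, 56.1 and 2.04 FPKM in P 1 to 3 (log2 ratio 0.18, SE 1.42, limma adjusted p = 0.958), and its ratio was -1.64 without NP 3. *Xpo1* (CRM1), the main exportin for proteins with a nuclear export signal, was at 0.675, 2.53 and 0.230 FPKM in NP 1 to 3 and 0, 6.47 and 0.180 FPKM in P 1 to 3. These were 6, 329 and 20 reads in NP and 0, 53 and 2 reads in P, and the fractions overlapped.

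The pore and transport genes that the naming rule leaves out gave a like picture. Of the 31 listed genes, 26 were tested and 0 passed the threshold (limma, adjusted p 0.1), with 2 under the replicate block (*Tnpo2* and *Aaas*). At an unadjusted p under 0.05 were 5 (*Aaas*, *Nutf2*, *Nxt1*, *Rae1* and *Tnpo2*, all with the lower mean in P) against 15.8% of all genes. The lower mean was in P for 22, against 80.1% of all genes (14 of 25 with median-of-ratios scaling, against 60.0%). Of the 22, *Pom121*, *Rangap1*, *Ranbp2*, *Tnpo3* and *Senp2* passed the filter through NP alone, which favours a lower mean in P. Every P library lay below every NP library for 6 of the 26, against 23.2% of all genes. Their median log2 ratio was -1.03. *Ran* itself was the only gene of this list with every P library above every NP library (0.633% of all genes), at 14.04, 45.7 and 46.1 FPKM in NP 1 to 3 and 46.1, 53.3 and 61.5 FPKM in P 1 to 3, although NP 2, NP 3 and P 1 were nearly equal (log2 ratio 0.76, SE 0.94, limma adjusted p = 0.666) and the ratio was 0.21 without NP 1. *Rcc1*, the exchange factor that loads Ran with GTP on chromatin, was at 12.8, 9.95 and 10.6 FPKM in NP 1 to 3 and 1.59, 4.55 and 0.335 FPKM in P 1 to 3. All P values lay below all NP values (log2 ratio -2.17, SE 1.21, limma adjusted p = 0.382), but those of *Rcc1* in P rested on 1, 20 and 2 reads. *Rangap1*, which makes Ran hydrolyse GTP, was at 1.76, 13.1 and 0 FPKM in NP 1 to 3 and 0, 0 and 2.41 FPKM in P 1 to 3 (log2 ratio -1.17, SE 1.09, limma adjusted p = 0.562). It passed the filter through NP alone, and its 0 in P 1 allowed up to 3.77 FPKM, above the P 3 value.

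*Cse1l*, the exportin that returns importin α to the cytoplasm, was at 13.8, 3.05 and 0.109 FPKM in NP 1 to 3 and 9.26, 2.49 and 0.245 FPKM in P 1 to 3, and its log2 ratio of -0.19 (limma adjusted p = 0.948) was 0.49 with median-of-ratios scaling. *Ranbp2*, the large cytoplasmic filament protein, was at 1.11, 1.94 and 0.183 FPKM in NP 1 to 3 and 0, 0.185 and 1.43 FPKM in P 1 to 3 (log2 ratio -0.45, SE 0.83, limma adjusted p = 0.790). It too passed the filter through NP alone, and its 0 in P 1 allowed up to 1.56 FPKM, above its other P values. *Tpr*, the main basket filament, was at 0, 0.0526 and 0.0157 FPKM in NP 1 to 3 and 0.582, 0.0835 and 0 FPKM in P 1 to 3 and was not tested. These were 0, 10 and 2 reads in NP and 1, 1 and 0 reads in P. *Xpot* and *Ranbp6* were listed at 0 in all 6 libraries.

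Cytoplasmic polyadenylation elements (CPEs) are U-rich motifs near the end of the 3′ UTR through which stored oocyte mRNAs are known to gain a poly(A) tail and enter polysomes. The last 100 bases of the annotated 3′ UTR were searched for TTTTAT or TTTTAAT on the sense strand only, in 1 transcript for each gene, for 34 tested members and 8473 tested genes. Neither motif can hold the other. A match was present in 10 of the 34 members (29.4%) and in 19.5% of all genes, and a polyadenylation signal (AATAAA or ATTAAA) in 88.2% and 81.3%. On the log2 scale the P to NP ratios had a median of -0.49 over the 10 members with a match and -1.01 over the 24 without one, while over all genes tested it was -0.85 with and -1.04 without. These are descriptions, and a match is not a shown site. Not all 10 members had a match upstream of the polyadenylation signal in a transcript ending near the deposited end of the gene. *Kpna2* and *Kpna7*, the most abundant members, had no match in these 100 bases.

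The 5 matches that lay upstream of the polyadenylation signal, in transcripts ending at or near the deposited end of the gene, are shown because the letters around the element can be read beside the ratios of these members. Each is a 30-base window of the 3′ UTR from the GENCODE transcript on GRCm38, 5′ to 3′, with the CPE letters in capitals.
Ipo5, chr14:120947949-120947978, plus strand: tgagTTTTATgcataaatcagaatttaaaa
Ipo8, chr6:148770708-148770737, minus strand: gaacTTTTATgaatgtactgtaaaataaaa
Nup37, chr10:88178308-88178337, plus strand: ttatTTTTATatcaaacatactgtaaatct
Nup54, chr5:92415571-92415600, minus strand: gtttTTTTATttctaaaaatgaaatcctta
Nup62, chr7:44830718-44830747, plus strand: tctaTTTTATttctctgcactctattgtag
The distance from the end of the element to the signal, in bases, was 19 for *Ipo5*, 13 for *Ipo8*, 48 for *Nup37*, 21 for *Nup54* and 59 for *Nup62*. Their log2 ratios of P over NP were 0.65 for *Ipo5*, 0.41 for *Ipo8*, -1.82 for *Nup37*, -0.013 for *Nup54* and -0.70 for *Nup62*. The other members with a match were *Kpnb1* at -0.67, *Nup35* at -0.32, *Nup98* at -1.62, *Xpo4* at 0.18 and *Xpo7* at -3.27, so that members with a match ranged from -3.27 to 0.65.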

How the data were processed

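Polysome profiling separated the lysate of 200 AF oocytes on a sucrose gradient, and 10 fractions were pooled into NP (free RNA and monosomes) and P. RNA was depleted of rRNA, amplified as whole transcriptome with random and oligo(dT) primers, and sequenced. The submitters' processing notes name Trim Galore 0.4.1, FastQC 0.11.5, HISAT2 2.0.5 and GRCm38, and the authors computed the deposited FPKM values per gene in SeqMonk. The annotation release and the strand setting were not given in the sources used here. Amplification from few cells adds noise that FPKM does not remove. The authors' fraction means in the table were not used.

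Of 25965 rows, 58 symbols occurred more than once and the row with the highest mean was kept. Genes with a mean above 1 FPKM in either fraction were tested with limma 3.58.1 in R 4.3.3 (trend, two-sided, Benjamini-Hochberg over 10578 genes) on log2(FPKM + 1), at the study's adjusted p threshold of 0.1. On this scale a fold change of a low gene is understated. FPKM are not counts, so no count test was run. Exon lengths came from GENCODE M21 for 22557 genes (87.1%). Depth was estimated from the steps of low FPKM values, of which 57.9 to 65.4% came out whole within 0.02 reads. Reads are printed for members and other transport genes whose values under 150 reads came out whole within 0.05. The scripts were tested on simulated data. By the naming rule, members given with ratio and test were the 3 with the highest mean in each prefix group, *Kpna2* and *Kpna7*, any past the threshold, and the 3 highest and 3 lowest log2 ratios, with *Ran*, *Rcc1*, *Rangap1*, *Cse1l*, *Tpr* and *Ranbp2* from the other genes. Levels may be given for any member, and ratios and tests of further members were added after their values were seen. The members, lists and tests were chosen with earlier results of these data known. Alternatives were the pseudocount, the filter, the scaling, a replicate block and each library left out.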

Additional observations from a re-analysis of the deposited data

How the results depend on the processing

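Across the alternatives, 0 members passed the threshold in every fit but the one with replicate number as a block, where *Xpo7* passed (1 member), and 0 to 1 other transport genes passed as single libraries were left out, with 2 under the block (*Tnpo2* and *Aaas*). Same-numbered NP and P libraries deviated together only weakly (correlations 0.063, 0.099 and 0.116). Each correlated best with its own number (others -0.089 to 0.021), a hint of pairing. By the study's methods each lysate gave both an NP and a P pool, but no source used here ties a replicate number to a lysate, so the block stayed an alternative. The member median minus the all-gene median (0.15) became 0.69 with a pseudocount of 0.1, -0.28 with 5, -0.18 with no filter, 0.37 with a filter at 5 FPKM, 0.33 with median-of-ratios scaling and 0.32 with a common FPKM sum, and ran from -0.091 to 0.43 without single libraries. Scaling moved the all-gene median from -1.03 to -0.38 (median-of-ratios), -0.14 (quantile) and -0.43 (common sum). Under those scalings in that order, log2 ratios changed sign to 0.16, 0.17 and 0.095 for *Kpna2*, 0.52, 0.48 and 0.32 for *Xpo5*, and 0.49, 0.92 and 0.44 for *Cse1l*, and quantile scaling gave 0.42 for *Ranbp2*. *Xpo5* was 0.27 with a pseudocount of 0.1 and *Xpo4* -0.12 with 5. Without single libraries, ratios spanned 0 for *Ipo5* (-0.66 to 2.36), *Ipo8* (-0.39 to 0.88), *Xpo4* (-1.64 to 1.34), *Xpo5* (-2.54 to 0.90) and *Cse1l* (-1.13 to 0.74). The filters, the fit without trend, the block and a stricter threshold leave each log2 ratio unchanged, so direction could not change in those fits. With them included, of 298 values over 19 named genes and 16 alternatives, 274 kept direction and side of the threshold and 23 reversed direction. The cause of these changes was not tested. Depth limits members listed at 0, whose median limit was 0.625 FPKM, and P 1 most.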

Other observations

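Members differed in how evenly the P libraries shared their level. For 6 of the 36 members tested (*Ipo7*, *Ipo13*, *Nup54*, *Nup205*, *Nup210* and *Xpo1*) a single P library held over 90% of the summed P level, where this was so for 27.7% of all genes tested. Of the 6, only *Nup54* and *Nup205* were above 0 in every P library. The 0 in P 1 allowed up to 1.64 FPKM for *Ipo7*, 4.35 for *Ipo13*, 1.75 for *Nup210* and 2.55 for *Xpo1*. For these members a share over 90% was therefore not shown. No member tested had over 90% of its summed NP level in 1 NP library, against 10.7% of all genes. Among the genes outside the naming rule, *Aaas*, which encodes a pore protein on the cytoplasmic face, was at 7376 FPKM in NP 3 and at 532 and 351 FPKM in NP 1 and NP 2.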
